A study of Camponotus fellah with 299 samples.

Results

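Foragers and nest guards were compared among the most mature workers of the carpenter ant Camponotus fellah, in 61 of the 299 ants whose brains were sequenced singly. Each brain gave its own stranded mRNA library, and the deposited values are read counts per gene model. The ants came from 3 colonies, named 2, 3 and 4, that were followed for a week before all ants were killed, and all but 10 of them carry the labels the choice needs. The labels give age in months, body length, tallies of behaviours, a maturity value between 0 and 1 and a nurse-forage ratio; how maturity and the ratio were computed is not given in the sources used here.

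Mature ants were those with maturity above 0.7, with the deposited value replaced by 1 minus itself in colony 4, where it ran the other way. Ants with a deposited value above 0.7 had a mean brood care tally of 7.67 (n = 70) in colony 4, against 0.0227 (n = 44) in colony 2 and 0.292 (n = 24) in colony 3. After this turn 95 ants passed the bound, and 80 of them had a body length below the bound that was set, which lay between the 10.4 of the longest ant kept and the 10.7 of the shortest left out (a label without a unit). Of these 80, the 48 with a nurse-forage ratio of at least 0.5 were the foragers. The 13 with a guarding tally of at least 2 and a ratio below 0.2 were the guards, and 19 ants met neither description. Colonies 2, 3 and 4 gave 12, 19 and 17 foragers, and 8, 4 and 1 guards, so colony 4 adds almost nothing on guards. All 61 ants are untreated workers of unmanipulated genotype as far as the labels tell, and ants of a colony share a nest.

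In ant colonies, workers of the same nest divide its tasks. Young workers commonly tend brood inside, older ones leave the nest to collect food, and guards stay with the nest and meet intruders. Work changes with age in many species, so that comparisons of task in the brain are often comparisons of age as well; here foragers and guards both lie at the late end of that passage, which is the reason to set them side by side.

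The 2 groups did different work. The nurse-forage ratio averaged 0.801 ± 0.154 in foragers and 0.0290 ± 0.0498 in guards (SD, n = 48 and 13), and it was 0 in 6 of the 13 guards. The guarding tally had a median of 0 and a range of 0 to 6 in foragers, against a median of 7 and a range of 2 to 18 in guards. These values chose the groups and are given as a description. The separation was one of degree for guarding, since 10 of the 48 foragers also had a guarding tally of at least 2. At the bounds, the lowest ratio of a forager was 0.502 and the highest of a mature ant left out below it was 0.489; the highest ratio of a guard was 0.177, and the next ant with enough guarding had 0.240. The lowest maturity of a guard was 0.703, against 0.681 in the ant just outside. The longest body kept was that of a forager and the shortest left out that of a guard. The lone guard of colony 4 had a guarding tally of 2, the lowest that the choice allows.

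**Figure D1:**
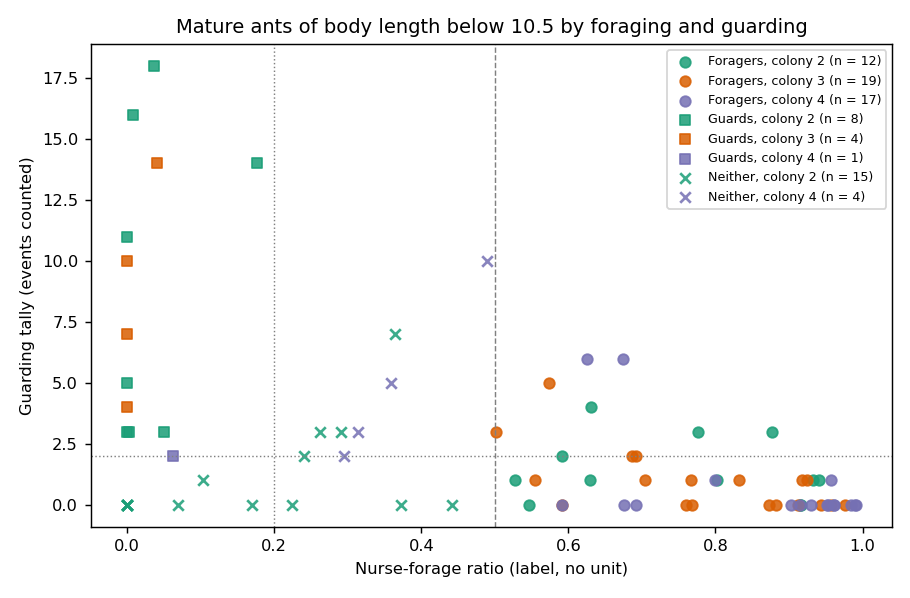
Guarding tally (events counted, y axis) against nurse-forage ratio (label without a unit, x axis) for the 80 mature ants below the bound on body length, 1 point per ant; circles are foragers, squares guards, crosses ants of neither group, colours are colonies and lines are the bounds. Foragers lie right of 0.5, guards left of 0.2 and at 2 or more, and 10 of the 48 foragers also reach a tally of 2.

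Maturity still differed inside the mature ants. It averaged 0.968 ± 0.0450 in foragers and 0.850 ± 0.0938 in guards (SD), and 33 of the 48 foragers lay above the most mature guard. Task and the remaining difference in maturity can therefore be told apart only in part. Age overlapped widely. Foragers were 4 to 46 months old with a median of 28.5, and guards 11 to 32 months old with a median of 23. Within colonies the mean difference in age was 2.62 months, foragers minus guards, which a 2-sided permutation test within colonies did not separate from 0 (p = 0.303, adjusted p = 0.540 by Benjamini-Hochberg over 7 labels tested).

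The tallies of brood care, queen attendance, and cleaning, trophallaxis and grooming in the nest had the same outcome. Tallies made while foraging were not tested. Trophallaxis while foraging averaged 3.46 in foragers and 0.154 in guards, and cleaning while foraging 1.40 and 0. Brood care was rare in both groups, with means of 0.146 in foragers and 0.231 in guards. Nest cleaning averaged 0.833 ± 1.93 in foragers and 4.31 ± 10.0 in guards (SD), with a single guard at 37. Trophallaxis in the nest, the passing of liquid food from mouth to mouth, averaged 4.27 ± 3.80 in foragers and 2.92 ± 2.40 in guards (SD). Its within-colony difference of 2.39 had p = 0.0281 in the same permutation test and an adjusted p of 0.197. In every labelled ant this tally was at least the tally of trophallaxis while foraging, so it may include those events. Foragers and guards did not differ detectably in library size either, with 38.8 ± 8.89 and 38.7 ± 6.68 M counted reads (M, 1e+06; SD; permutation p = 0.994).

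Library totals differed within both groups. They ran from 22.4 to 68.4 M reads in foragers and from 26.3 to 49.7 M in guards, and the highest correlation of log2 values between any pair of the 61 ants was 0.987, so no library appeared to be deposited more than once. The first principal component within colonies held 13.1% of the variance. It went with log2 library size, with an absolute r of 0.634, and hardly with the group, with an absolute r of 0.0560 (61 ants). On it 3 foragers stood apart, 1 from each colony, with totals of 22.4, 23.4 and 33.4 M reads, and results that rest on them are also given without them. Within colonies, group took on average 2.78% of a gene model's variance given age, age 3.71% given group, and library size 12.4% given both, beside 1.72% for a covariate with no relation to the brain. Maturity took 2.66% given group and age.

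Few gene models were called between the brains of foragers and guards. Of 10470 gene models tested with edgeR's quasi-likelihood test, with colony and age in the model, 19 passed an adjusted p of 0.05 by Benjamini-Hochberg, which is 0.181% of those tested. There were 12 higher in foragers, 0.115%, and 7 lower in foragers, 0.0669%. The changes were mostly small: 12 of the 19 were below 0.5 on the log2 scale, 4 lay between 0.5 and 1, and 3 exceeded 1, all 3 of them higher in foragers. The differences of the gene models that rose ran from 0.17 to 1.62, and of those that fell from -0.79 to -0.18. At an unadjusted p of 0.05, 1415 gene models (13.5%) passed in edgeR, more than the share of 0.05 that would pass on average without any difference. Gene models are not independent of each other, so no p is given for that excess.

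The low number of calls came with fairly narrow intervals. The 95% interval of a gene model had a median half-width of 0.146 on the log2 scale. It lay wholly within 0.5 of 0 for 81.9% of the gene models and wholly within 1 for 94.6%. For most of the measured transcriptome, therefore, a difference of 1.0 log2 unit between foragers and guards lay outside the interval. A whole brain was measured, so fewer cells of a type and less RNA per cell cannot be told apart, and a p-value here reflects how far single ants of the 3 colonies vary.

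The number of calls depended on the choice of ants. It was 46 with DESeq2 and 23 with limma-voom, 7 with maturity added to the model, 11 without the 3 foragers that stood apart and 0 without colony 2, where 666 passed an unadjusted p of 0.05. Leaving out 1 guard at a time gave between 4 and 20 calls, and the lowest number came without a guard of colony 2 that had the highest guarding tally, 18. Keeping only the 8 guards with a tally of at least 5 gave 0 calls in edgeR, with 1203 at an unadjusted p of 0.05. Other choices raised the number: 65 with only foragers at a ratio of 0.75 or more, 68 with foragers in the guards' age range and 381 in 1 fit of all labelled ants. With maturity added, the differences of all 19 called gene models kept their sign and 11 of them grew, but only 5 of the 19 were still called. None of the 4 gene models described singly below kept its call in that edgeR fit. The adjusted p was 0.101 for evm.model.ctg11.154, evm.model.ctg5.63 and evm.model.ctg23.278. For evm.model.ctg132.8 it was 0.180, with a difference of -0.54 in place of -0.76. In that fit 2237 gene models (21.4%) had an unadjusted p of 0.05 in edgeR, against 1415 (13.5%) without maturity. Ants with neighbouring numbers in a colony may have been handled together, which the labels do not say; with runs of 10 numbers as blocks in place of colony there were 0 calls in edgeR, 859 gene models at an unadjusted p of 0.05, and all 19 kept their sign, 17 of them at an unadjusted p of 0.05. Only 5 of the 22 runs held both groups, with 14 foragers and 8 guards. The 19 were chosen by their p in these same ants, so kept signs and low unadjusted p in such refits are partly fixed.

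**Figure D2:**
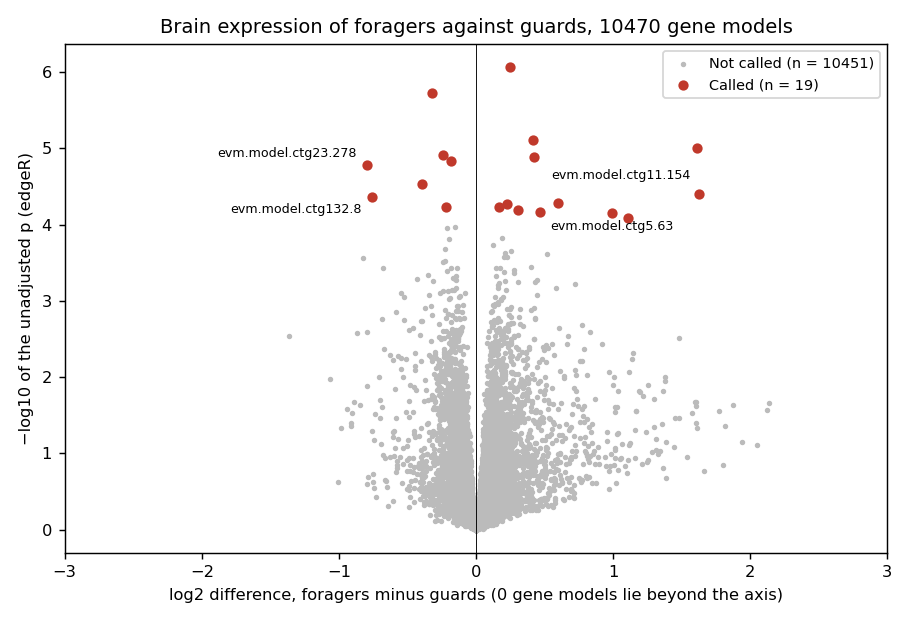
Difference between foragers and guards (log2, foragers minus guards, x axis) against the size of the unadjusted p (minus log10, edgeR, y axis) for 10470 gene models, 1 point each. The 19 called gene models are red, 12 right of 0 and 7 left of it, and the 4 described singly are labelled.

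The gene models carry identifiers made of a contig and a number, and the files used here do not pair them with gene names, so no role can be given for any of them. Described singly are the 2 highest and the 2 lowest of the 15 called gene models that were expressed above a set level and moved the same way in colonies 2 and 3. Without the strand setting of the counting, reads from overlapping models on opposite strands, or from near-identical copies, cannot be assigned with certainty. Values are in CPM, reads per 1e+06 counted reads, and as CPM takes no account of length they are not compared between gene models.

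The gene model evm.model.ctg11.154 was higher in foragers. It stood at 3.81 CPM in the lowest forager, 9.10 in the median and 20.9 in the highest, against 4.59 in the lowest guard, 5.82 in the median and 8.63 in the highest. The guards were tightly grouped and the foragers were not: 45 of the 48 foragers lay above the median guard, no guard lay above the median forager, and 25 foragers exceeded every guard. These counts, like those for the gene models below, pool the colonies, whose levels differed. Forager medians were 7.13, 9.04 and 10.8 CPM in colonies 2, 3 and 4, and guard medians 5.73 and 6.07 CPM in colonies 2 and 3. Means were 9.53 ± 3.18 CPM in foragers and 5.95 ± 0.981 CPM in guards (SD, n = 48 and 13), a difference of 0.60 ± 0.14 on the log2 scale (SE, edgeR, adjusted p = 0.0408). The highest forager was one of the 3 that stood apart, and without that ant alone the difference was 0.49 with an adjusted p of 0.0738 in edgeR. That ant also had the smallest library of the 48 foragers, 22.4 M reads; with library size in the model edgeR gave a difference of 0.58 ± 0.13 over all 61 ants (SE), at an adjusted p of 0.0292.

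The gene model evm.model.ctg5.63 was also higher in foragers, with 6.44 CPM in the lowest forager, 11.1 in the median and 18.3 in the highest, against 5.12 in the lowest guard, 7.74 in the median and 11.1 in the highest. Here 44 of the 48 foragers lay above the median guard and 1 guard of 13, that of colony 4, lay above the median forager. Means were 11.5 ± 2.76 CPM in foragers and 7.76 ± 1.62 CPM in guards (SD), a difference of 0.47 ± 0.11 on the log2 scale (SE, edgeR, adjusted p = 0.0408). Without the 3 foragers that stood apart its difference was 0.43 and no longer passed in edgeR, with an adjusted p of 0.0772.

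The gene model evm.model.ctg23.278 had the largest fall. It was at 3.92 CPM in the lowest forager, 17.3 in the median and 46.4 in the highest, against 23.9 in the lowest guard, 33.2 in the median and 47.8 in the highest. All 13 guards lay above the median forager and 35 of the 48 foragers lay below every guard; the high end of the foragers overlapped the guards. Means were 19.1 ± 8.81 CPM in foragers and 34.9 ± 7.31 CPM in guards (SD), a difference of -0.79 ± 0.17 on the log2 scale (SE, edgeR, adjusted p = 0.0214). Of the 4, it kept its call in the most alternatives, 26 of 37.

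The gene model evm.model.ctg132.8 was lower in foragers too, with 7.88 CPM in the lowest forager, 17.0 in the median and 53.6 in the highest, against 13.5 in the lowest guard, 41.7 in the median and 55.9 in the highest. The guards themselves were spread widely, so that 11 of 13 lay above the median forager but only 12 of 48 foragers lay below every guard. Means were 19.8 ± 9.18 CPM in foragers and 36.1 ± 14.2 CPM in guards (SD), a difference of -0.76 ± 0.17 on the log2 scale (SE, edgeR, adjusted p = 0.0408). Without the highest guard the difference was -0.70 with an adjusted p of 0.103 in edgeR. The highest forager for both falling gene models was the same ant of colony 2.

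**Figure D3:**
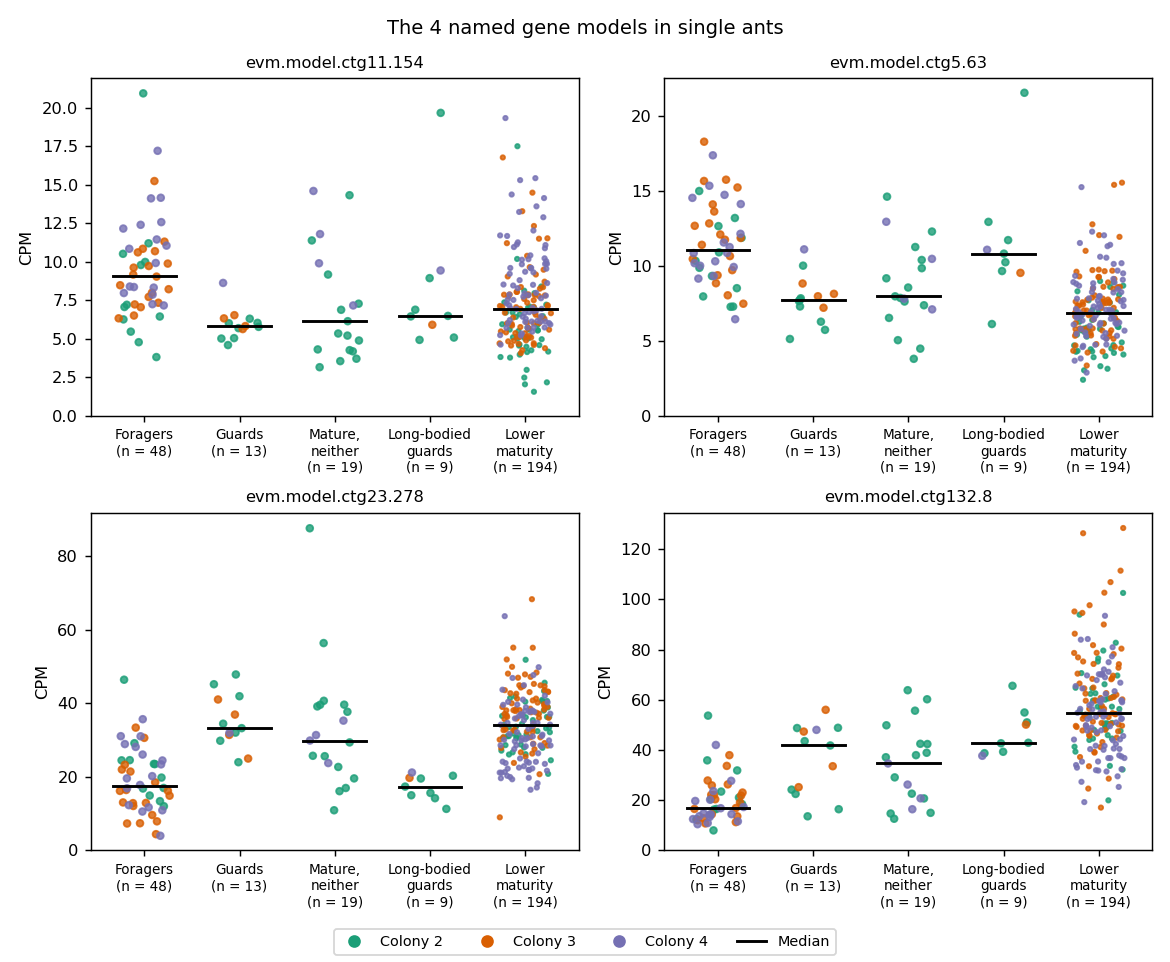
Level of the 4 gene models (CPM, y axis of each panel, starting at 0) in single ants of 5 groups, 1 point per ant, coloured by colony, with a line at the median of each group. Medians of foragers and guards were 9.10 and 5.82 CPM for evm.model.ctg11.154, 11.1 and 7.74 for evm.model.ctg5.63, 17.3 and 33.2 for evm.model.ctg23.278, and 17.0 and 41.7 for evm.model.ctg132.8.

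The other 15 called gene models moved by smaller amounts or were near the low end of expression. All 3 with a difference above 1 belonged to the low-expressed ones. Of the 19, 16 contigs were represented, and 1 contig held 3 of the gene models that rose, numbers 1, 2 and 4 of the contig, with differences of 0.23, 0.42 and 0.43 on the log2 scale. In the same order these were 0.38, 0.71 and 0.67 in colony 2 alone, and smaller in colony 3 alone, at 0.11, 0.13 and 0.31. Number 3 of that contig differed by -0.04 (SE 0.08, edgeR, unadjusted p = 0.598). Across the 61 ants, after removing colony and age, the 3 called ones were correlated with an r of 0.681 to 0.865. Group was not removed, so the difference that called all 3 is part of this r. The values come from the same 61 libraries, so this is a description, and the 3 calls are not separate observations.

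The colonies taken singly gave no calls in edgeR, and the called gene models moved the same way in both. Colony 2 (12 foragers and 8 guards) gave 0 calls among 10289 gene models, 0%, with 970 at an unadjusted p of 0.05; DESeq2 gave 29, limma-voom 2 and edgeR with library size in the model 8. Colony 3 (19 foragers and 4 guards) gave 0 among 10517, with 772 at an unadjusted p of 0.05, and 0 in DESeq2 and limma-voom. All 18 called gene models that could be tested in both colonies had the same sign in both, which the calls over all ants partly fix. Over all 10238 gene models tested in both, which no call chose, 70.6% had the same sign, with a Spearman rho of 0.503 across gene models; with library size in both models these were 65.6% and 0.393. Ants of colony 2 and colony 3 are different animals, while gene models are not independent of each other, so no p is given.

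For evm.model.ctg23.278 the difference was -0.69 ± 0.16 in colony 2 and -1.04 ± 0.31 in colony 3 (log2, SE, edgeR). For evm.model.ctg132.8 it was -0.54 ± 0.26 in colony 2 and -0.93 ± 0.24 in colony 3. For evm.model.ctg11.154 it was 0.65 ± 0.22 in colony 2 and 0.59 ± 0.18 in colony 3, and for evm.model.ctg5.63 it was 0.52 ± 0.15 in colony 2 and 0.57 ± 0.18 in colony 3. A direct test of whether the difference itself was unlike in the 2 colonies gave 0 of 10377 gene models in edgeR, DESeq2 and limma-voom, with 211 (2.03%) at an unadjusted p of 0.05 in edgeR; for the 4 gene models it was no larger than its SE, as with -0.34 ± 0.36 for evm.model.ctg23.278 and -0.36 ± 0.39 for evm.model.ctg132.8. Its intervals had a median half-width of 0.305. A call over 10377 gene models needs more than an interval that leaves out 0, so differences between colonies of this size and above could go uncalled.

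In colony 4 the single guard allows values only. For evm.model.ctg11.154 that guard had 8.63 CPM, and 10 of the colony's 17 foragers lay above it. For evm.model.ctg5.63 it had 11.1 CPM, with 8 of 17 foragers above, which is no separation. It stood with the other guards for the falling pair, with 16 of 17 foragers below its 31.9 CPM of evm.model.ctg23.278 and all 17 below its 48.0 CPM of evm.model.ctg132.8.

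**Figure D4:**
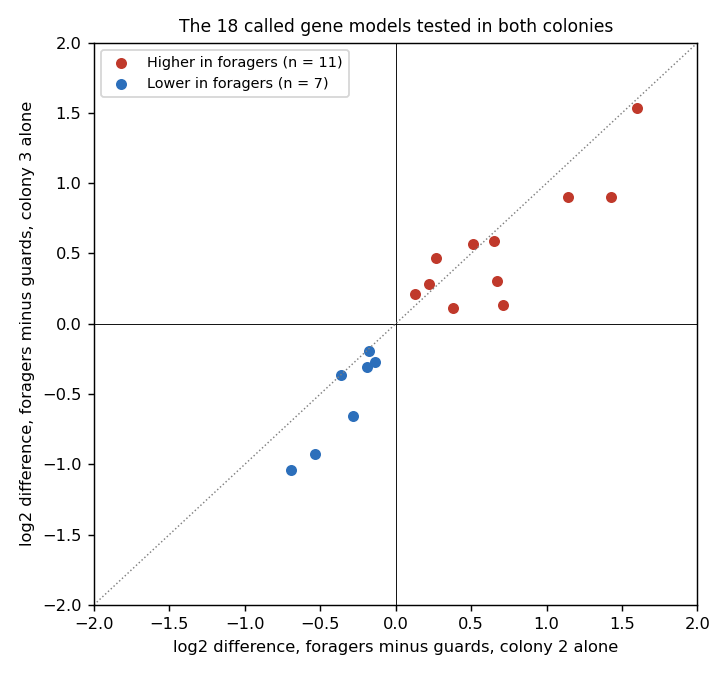
Difference between foragers and guards in colony 3 alone (log2, y axis) against colony 2 alone (log2, x axis) for the 18 called gene models tested in both, red where higher in foragers (11) and blue where lower (7), with a dotted line of equality. All 18 lie in the quadrants of equal sign.

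**Figure D5:**
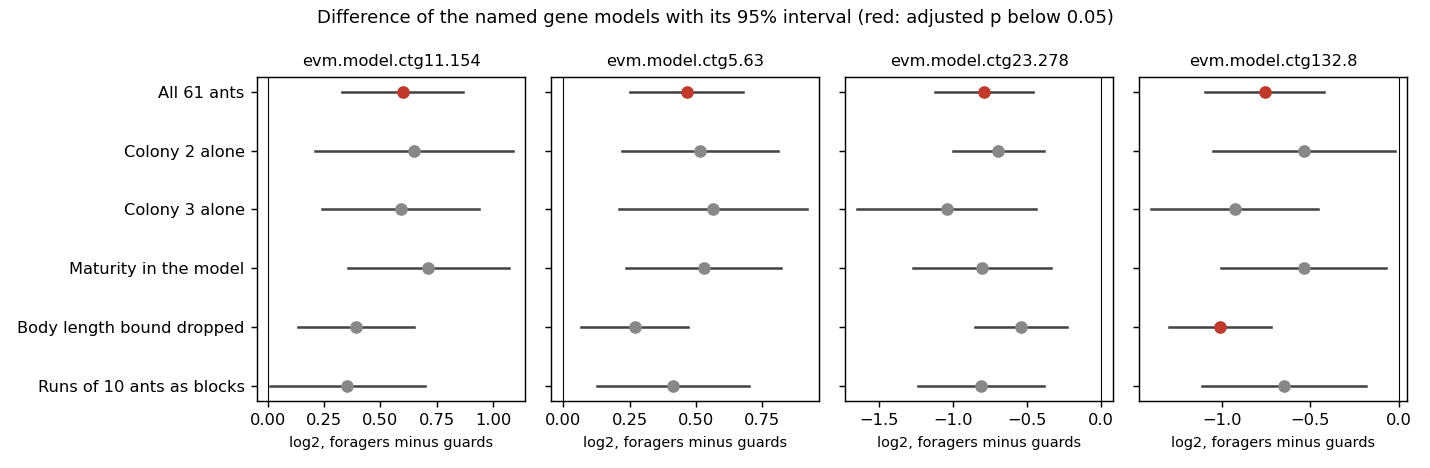
Difference between foragers and guards (log2, x axis) of the 4 gene models with its 95% interval in all 61 ants, in single colonies, with maturity in the model, without the bound on body length and with runs of 10 ants as blocks; red points passed an adjusted p of 0.05. For evm.model.ctg23.278 the value ran from -0.54 without the body length bound to -1.04 in colony 3.

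Set against the ants of lower maturity, 43, 74 and 77 in colonies 2, 3 and 4, the 4 gene models placed guards differently. These comparisons come from 1 edgeR fit of all labelled ants, with Benjamini-Hochberg adjustment, and they share the ants of lower maturity with each other and the foragers and guards with the results above, so their values stand side by side without a test between them. Foragers differed from ants of lower maturity in 1432 of 11493 gene models (12.5%), with 6.56% higher and 5.9% lower, and guards in 309 (2.69%), with 1.35% higher and 1.34% lower. With 48 foragers and 13 guards the counts are not comparable as sizes of effect. Of the 19 gene models called between foragers and guards, 12 were called between foragers and ants of lower maturity and 2 between guards and those ants.

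For evm.model.ctg23.278 the difference from ants of lower maturity was -0.69 ± 0.09 in foragers and 0.14 ± 0.14 in guards (log2, SE), so guards stood near the 34.3 ± 8.77 CPM (SD) of ants of lower maturity. For evm.model.ctg11.154 it was 0.41 ± 0.10 in foragers and -0.10 ± 0.15 in guards, and for evm.model.ctg5.63 it was 0.46 ± 0.08 in foragers and 0.04 ± 0.12 in guards. For these 3, the 95% interval of the guards' difference included 0 and that of the foragers' did not. The gene model evm.model.ctg132.8 was graded instead, with -1.24 ± 0.10 in foragers and -0.45 ± 0.15 in guards; the guards' own difference had an adjusted p of 0.0799 in edgeR. Mean levels of it were 19.8 CPM in foragers, 36.1 in guards, 33.7 in mature ants of neither group and 57.3 in ants of lower maturity.

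Ants outside the comparison gave separate readings of foraging and of guarding. Among the 19 mature ants of neither group, the slope of expression on the nurse-forage ratio, with colony and age in the model, passed for 0 of 10544 gene models in edgeR and 0 in limma-voom; DESeq2 gave 86 that rose and 53 that fell with the ratio, 1.32% of those tested, and 1809 (17.2%) had an unadjusted p of 0.05 in edgeR. Of the 19 gene models called between foragers and guards, 12 had a slope of the same sign as their difference, 6 of the 12 that rose and 6 of the 7 that fell, against 61.02% of all 10413 gene models tested in both. None of the 19 had an unadjusted p of 0.05. The slope was imprecise, with a median 95% half-width of 0.601 per unit of the ratio, so that the ratio's relation to the called gene models was not detectable among these ants.

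Guarding was also tallied among the ants of lower maturity, of which 32 had a tally of at least 2. With colony, age and maturity in the model, 3 of 10624 gene models passed in edgeR (0.0282%), all higher in ants that guarded; none of the 3 was among the 19. Of the 3, 2 rested on a few ants, since a single ant held 60.5% and 66.3% of their summed CPM in the ants that guarded. Of the 19 called gene models, 0 had an unadjusted p of 0.05 for guarding here and 11 moved as they did in mature guards relative to foragers, against 47.3% of all gene models. Intervals were narrow in this comparison, with a median half-width of 0.0982. For evm.model.ctg23.278 the difference was 0.04 ± 0.08 and for evm.model.ctg132.8 it was 0.06 ± 0.10 (log2, SE), with levels of 32.1 ± 9.30 and 51.4 ± 18.1 CPM in the ants that guarded and 34.7 ± 8.63 and 58.4 ± 18.4 CPM in those that did not (SD, n = 32 in the first group). These means, taken without covariates, run opposite to the differences from the model, and both differences are smaller than their SE, so no direction is read from them.

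Body length divided the guards. Of all 22 guards at this maturity, 9 had a body length above the bound and were left out, with lengths of 10.7 to 11.8, against 7.59 to 9.42 in the 13 guards kept; workers of carpenter ants vary in body size within a colony. The long-bodied guards had a median guarding tally of 10 and the 13 others one of 7. They were 27.7 ± 3.12 and 22.5 ± 6.88 months old (SD). In the fit of all labelled ants, long-bodied guards differed from the 13 guards in 1224 of 11493 gene models (10.6%), 650 higher (5.66%) and 574 lower (4.99%) in long-bodied guards (edgeR, adjusted p below 0.05). That comparison was added after the values were seen.

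The 4 gene models did not share 1 pattern in that comparison. For evm.model.ctg23.278 the long-bodied guards had 11.2 to 21.1 CPM with a median of 17.3, against 23.9 to 47.8 CPM in the other guards, without overlap; the difference was -0.96 ± 0.21 on the log2 scale (SE, edgeR, adjusted p = 0.00111). Their level was near that of the foragers, whose median was also 17.3 CPM. For evm.model.ctg5.63 the long-bodied guards had a median of 10.8 CPM against 7.74 in the other guards, a difference of 0.50 ± 0.17 (SE, edgeR, adjusted p = 0.0408). For evm.model.ctg11.154 the long-bodied guards had 4.93 to 19.7 CPM with a median of 6.48, against a median of 5.82 in the other guards, and the difference of 0.51 ± 0.21 missed the threshold in edgeR (adjusted p = 0.0968). The highest of them, at 19.7 CPM, had 21.2 M reads, the fewest of the 9, and was also the highest for evm.model.ctg5.63; the part of depth in these values was not tested. For evm.model.ctg132.8 the long-bodied guards, at 37.6 to 65.5 CPM, stood with the high end of the other guards, and the difference of 0.53 ± 0.21 missed the threshold in edgeR (adjusted p = 0.0811).

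Without the bound on body length, 51 foragers and 22 guards gave 71 calls, 17 higher and 54 lower in foragers, and 8 gene models stood in both lists, 8 of the 71 and 8 of the 19. All 19 kept their sign, and for 15 the difference was smaller. The ants that called the 19 were all in this fit too, which partly fixes the signs. For evm.model.ctg23.278 it became -0.54 ± 0.16 with an adjusted p of 0.105 in edgeR, and for evm.model.ctg132.8 it became -1.01 ± 0.15 with an adjusted p of 2.44e-05. The higher level of guards in evm.model.ctg132.8 was thus measured in guards of both body lengths, and that in evm.model.ctg23.278 in the shorter guards. Of the 9 long-bodied guards 7 came from colony 2, while the 3 long-bodied foragers all came from colony 4. In colonies 2 and 3 long-bodied guards were therefore set against shorter foragers only. Task and body length are partly mixed in these values, and their parts were not tested.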

How the data were processed

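The authors deposited raw read counts, whole numbers without normalization, in 1 table of 14664 gene models and 299 ants; STAR and featureCounts made them, per the submitters' processing notes, with versions, genome build, annotation and strand setting not given in the sources used here. Libraries were made from Tri reagent extracts with a KAPA stranded mRNA kit, per the labels' protocols. Groups were built from the labels by the bounds in the text; 10 ants without labels were not analysed here. The members and lists were chosen with earlier results of these data known. Replicate numbers were given in accession order.

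Counts were tested in edgeR 4.0.16 (R 4.3.3): filterByExpr with a minimum count of 10, TMM size factors, glmQLFit with robust estimation, glmQLFTest, colony and age as covariates, and Benjamini-Hochberg adjustment over all gene models tested, with 0.05 as the threshold. DESeq2 1.42.0 and limma-voom (limma 3.58.1) were alternatives. The scripts were tested on simulated counts. Labels were compared by 2-sided permutation within colonies with 1e+05 resamples (Python 3.11.15, numpy 2.4.6). Labels that chose the groups, tallies made while foraging and head width were left out. Gene models described singly were, among those called with a mean log2 CPM (prior count 1) of at least 1 and the same sign of the difference and of the difference of medians in colonies 2 and 3, the 2 highest and the 2 lowest. Depth ran from 19.8 to 73.2 M reads over all 299 ants.

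Alternatives changed the size factors, the filter, the tool, the covariates, the bounds and the ants; leaving out the 3 foragers, the blocks of 10 ants and the comparison with long-bodied guards were added after the values were seen.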

Additional observations from a re-analysis of the deposited data

Results flagged for a closer look

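Among the 9 long-bodied guards, 1 ant of colony 2 stood far from the rest in both gene models that were higher in foragers. It had 19.7 CPM of evm.model.ctg11.154, where the next long-bodied guard had 9.43, and 21.6 CPM of evm.model.ctg5.63, where the next had 12.9. Its library, at 21.2 M reads, was the smallest of all 95 mature ants, and the next smallest, at 22.4 M, was the forager with the highest evm.model.ctg11.154, 20.9 CPM; the part of depth in these values was not tested. The guard's gap to the nearest other ant exceeded Dixon's 95% critical value in both. That guard also had the highest evm.model.ctg132.8 of the 9, at 65.5 CPM, and the lowest evm.model.ctg23.278, at 11.2 CPM. Chance flags about 1 in 20 groups, and 12 groups were examined.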

How the results depend on the processing

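The count of 19 gene models called between foragers and guards moved by more than 1.5 times under these alternatives: 46 with DESeq2, 7 with maturity in the model, 943 with 3 residual components in the model, 381 in 1 fit of all labelled ants, 0 without colony 2, 4 without colony 3, 71 without the body length bound, 0 with only guards at a tally of 5 or more, 4 with only foragers at a tally below 2, 65 with only foragers at a ratio of 0.75 or more, 68 with foragers in the guards' age range, 4 with maturity above 0.8, 11 without the 3 foragers that stood apart and 0 with runs of 10 ants as blocks. The 3 components were taken from what group, colony and age left over in the same ants. By construction they lower the residual variance and take nothing from the group, so the 943 cannot be read as more differences. Leaving out 1 guard gave from 4 to 20 calls. In colony 2 alone the count was 0 in edgeR, 29 with DESeq2, 2 with limma-voom and 8 with library size in the model; for the ratio among mature ants of neither group the share called was 0% and 1.32% with DESeq2. For guarding in ants of lower maturity it was 0.0282% in edgeR, 0.920% without the filter on low counts and 0.141% with only ants below the bound on body length. Other size factors, no filter, limma-voom, library size, no age, age by colony, body length, a minimum count of 50 and leaving out colony 4 gave 17 to 26 calls between foragers and guards. The gene models called were not always the same. Of the 23 called by limma-voom 14 were in the main list, and of the 19 called without colony 4 it was 13. The causes were not tested. None of the 4 gene models described singly changed direction in 37 alternatives each, which is partly fixed because the alternatives refit largely the same ants. The call of evm.model.ctg11.154 was lost in 23, that of evm.model.ctg5.63 in 21, that of evm.model.ctg23.278 in 11 and that of evm.model.ctg132.8 in 16. No paired analysis was possible because replicate numbers were given in accession order and pair no ants. Precision is limited by the 13 guards, of which colony 4 holds 1, and by library size, which took 12.4% of the within-colony variance; these limits were not compared.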
